A study of Homo sapiens with 6 samples.

Results

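The 39 human HOX genes were described in SH-SY5Y, an established human neuroblastoma cell line of the sympathetic nervous lineage. Members were every gene whose symbol is HOX followed by a cluster letter from A to D and a number, which gave 39 of the 60709 genes of the count table: 11 in HOXA, 10 in HOXB, 9 in HOXC and 9 in HOXD. Messenger RNA was sequenced from 3 control wells and from 3 wells treated with a fumarate linked to an Nrf2 peptide, and its title concerns activators of NRF2, a transcription factor for antioxidant genes. Both groups reached 80% confluence in serum-containing medium (2 mL per well), received 10 uL of DMSO, and were lysed after 5 h. Peptide wells also received 200 uL of a solution of 2 mg of peptide in 600 uL of water. The labels do not say whether wells of a group came from separate cultures, so the spread given below is that between these samples and may be technical.

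Counts could be tied by the number in the column heading to the 3 control samples, whose labels carry the numbers 4, 5 and 6. The peptide samples carry 13, 14 and 15 and were not analysed here, so no difference between the groups is given and no test was made. The name control rests on this match of numbers. If the headings had been numbered afresh, these libraries could be those of treated cells. Total counts were 10683037, 11397407 and 8887854 in control replicates 1, 2 and 3. The sample type was checked against markers of noradrenergic neuroblastoma. At least 10 counts in every library were found in 22.9% of all 60709 genes and in 62.2% of protein-coding genes. Of the 10 markers 9 reached that level, led per kb by HAND2, STMN2 and DBH, while TH had no count. Summed over the list, these markers ranged from 3345 to 3639 CPM (counts per 1000000 of the scaled library total). Of 6 mesenchymal markers 5 were at that level, led by TWIST1 and VIM, with PRRX1 at 0, and the list summed to between 543 and 552 CPM. The 3 fibroblast markers, of which 2 were at that level, summed to between 19.3 and 20.6 CPM, and the 4 glial markers, of which 2 were and SOX10 was at 0, to between 5.08 and 7.45 CPM. The 2 endothelial markers, of which 0 were at that level, summed to at most 0.187 CPM. The 3 epithelial markers, of which 1 (EPCAM) was, summed to at most 1.47 CPM. The 2 immune markers, of which 1 (CD14) was, summed to at most 2.43 CPM. Replicate 3 stood apart from the other libraries: mitochondrially encoded genes took 6.25% of its counts, against 4.11% and 3.83%, and its deviation from the mean fell with the GC content of a gene (Spearman's rho of -0.73 across 10290 nuclear genes, which are not independent replicates).

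HOX genes encode homeodomain transcription factors that give cells their position along the head-to-tail axis of the embryo. They lie in 4 clusters, HOXA on chromosome 7, HOXB on chromosome 17, HOXC on chromosome 12 and HOXD on chromosome 2, and genes with the same number in different clusters, called paralogs, descend from 1 ancestral gene. Low numbers sit at the 3′ end of a cluster and act in the hindbrain and neck, and high numbers sit at the 5′ end and act in the trunk, tail, limb tips and urogenital tract. In the sympathetic chain, whose precursors migrate from the trunk neural crest, HOX genes carry the segmental position of the cells of origin.

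The sequences of 3 microRNAs are shown first because they come from within the clusters and link them to the members' transcripts: miR-196 is known to target HOX messenger RNAs, with HOXB8 as the textbook case. Capitals mark the seed, bases 2 to 8 from the 5′ end, which pairs with a target. Sequences are from RefSeq on GRCh38.p14.

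hsa-miR-196a-5p: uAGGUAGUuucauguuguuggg

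hsa-miR-196b-5p: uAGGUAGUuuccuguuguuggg

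hsa-miR-10a-5p: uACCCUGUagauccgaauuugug

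The first sequence is made from 2 genes, MIR196A1 in HOXB (chr17:48632532-48632553, minus strand) and MIR196A2 in HOXC (chr12:53991762-53991783, plus strand), and the next from MIR196B in HOXA (chr7:27169528-27169549, minus strand), so that 1 seed, AGGUAGU, is shared by 3 clusters. MIR10A lies in HOXB (chr17:48579904-48579926, minus strand). A library of messenger RNA does not measure mature microRNAs. Of the 6 microRNA genes of the clusters, 0 had 10 counts in every library, 4 were at 0 in all of them, and the others were MIR10B with 0, 2 and 1 counts and MIR196A2 with 0, 1 and 0 counts.

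Of the 39 members, 13 had at least 10 counts in every library, the level called detected here. The same held for 22.9% of all 60709 genes and for 62.2% of the 19913 protein-coding genes of GENCODE release 29, the gene annotation used here. The 13 were HOXC4, HOXC5, HOXC6, HOXC8, HOXC9 and HOXC10 of the HOXC cluster, and HOXD3, HOXD4, HOXD8, HOXD9, HOXD10, HOXD11 and HOXD13 of the HOXD cluster. None was in HOXA or HOXB. In bulk RNA, fewer cells with a transcript and less of it per cell cannot be told apart. The grid of levels by cluster and paralog number shows this split, with a filled lower pair of rows and an upper pair at or near 0.

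**Figure D1:**
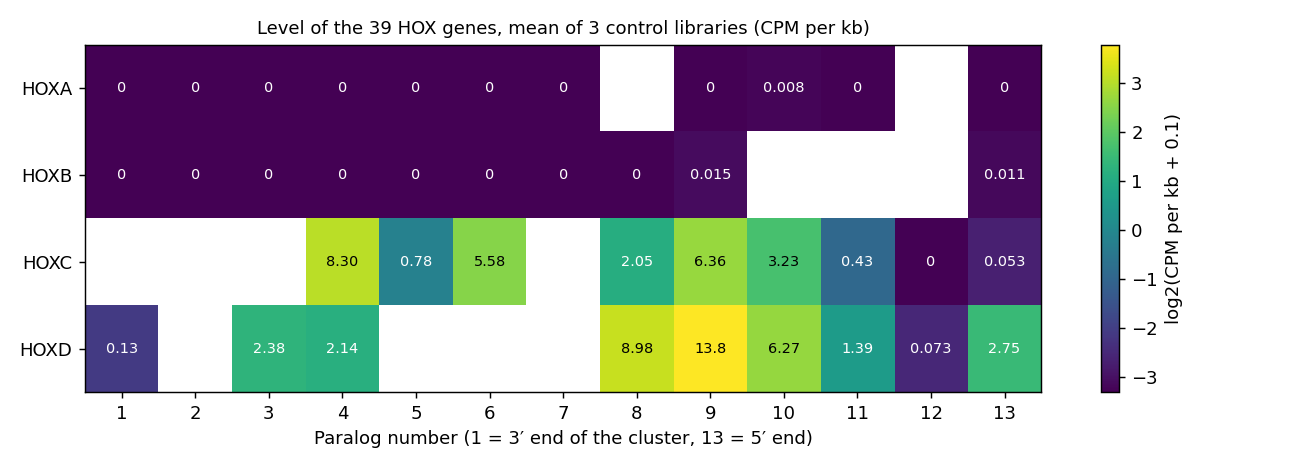
Each cell is a HOX gene, placed by cluster (rows) and paralog number (columns), with its mean CPM per kb of exon over the 3 control libraries printed in it and coloured on a log2 scale; white cells are positions with no gene in that cluster. HOXA and HOXB are at 0 or below 0.02 throughout, and the highest cell is HOXD9 at 13.8.

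The HOXA cluster, whose genes pattern the hindbrain at its 3′ end and the limb and reproductive tract at its 5′ end, gave 1 count in all: HOXA10 in replicate 2. The other 10 of its 11 members were at 0 in all 3 libraries. Pooled over the libraries, 1 count has an exact 95% Poisson interval of 0.0253 to 5.57 counts, or 0.0008175 to 0.18 CPM for the whole cluster. The HOXB cluster gave 2 counts, 1 each of HOXB9 and HOXB13, both in replicate 3, and 8 of its 10 members were at 0. Its pooled interval was 0.242 to 7.22 counts, or 0.007821 to 0.233 CPM. For a gene with no count in a library the limit is 3 counts, equal to 0.281, 0.263 and 0.339 CPM in replicates 1, 2 and 3. These limits cover counting error only, since no molecular identifiers are stated.

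The HOXC and HOXD clusters held all other HOX counts. HOXC summed to 738, 713 and 627 counts and HOXD to 938, 1024 and 747 counts in replicates 1, 2 and 3. HOXD was above HOXC in every library, and the ranges did not overlap after scaling either. HOXC came to 67.4 ± 4.43 CPM and HOXD to 87.2 ± 2.66 CPM (SD, n = 3). Divided by exon length, so that genes can be compared, HOXC summed to 27.5, 25.0 and 27.9 CPM per kb and HOXD to 38.0, 39.2 and 36.4 CPM per kb. On this per kb scale they made up 41.4% ± 2.3 and 58.5% ± 2.33 of the sum of all HOX genes (SD, n = 3). The ratio of HOXD to HOXC was 1.38, 1.57 and 1.3 in the 3 libraries, with a mean of 1.42 ± 0.138 (SD, n = 3). This order depends on the length used: per kb of coding sequence the mean ratio was 1.02 and HOXD was above HOXC in 1 of 3 libraries.

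All 39 members together gave 157, 152 and 155 CPM in the 3 libraries, with an average of 155 ± 2.38 (SD, n = 3). The summed level thus varied little between libraries. The median level of the 13 detected members was 3.23 CPM per kb, against 6.19 over the 13868 detected genes that have an exon length. These are low to middling levels for this cell line, as their percentiles among detected genes also show: HOXD9 was at the percentile 73.5, HOXD8 at 60.9, HOXC4 at 58.5 and HOXC5, the lowest, at 10.2.

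**Figure D2:**
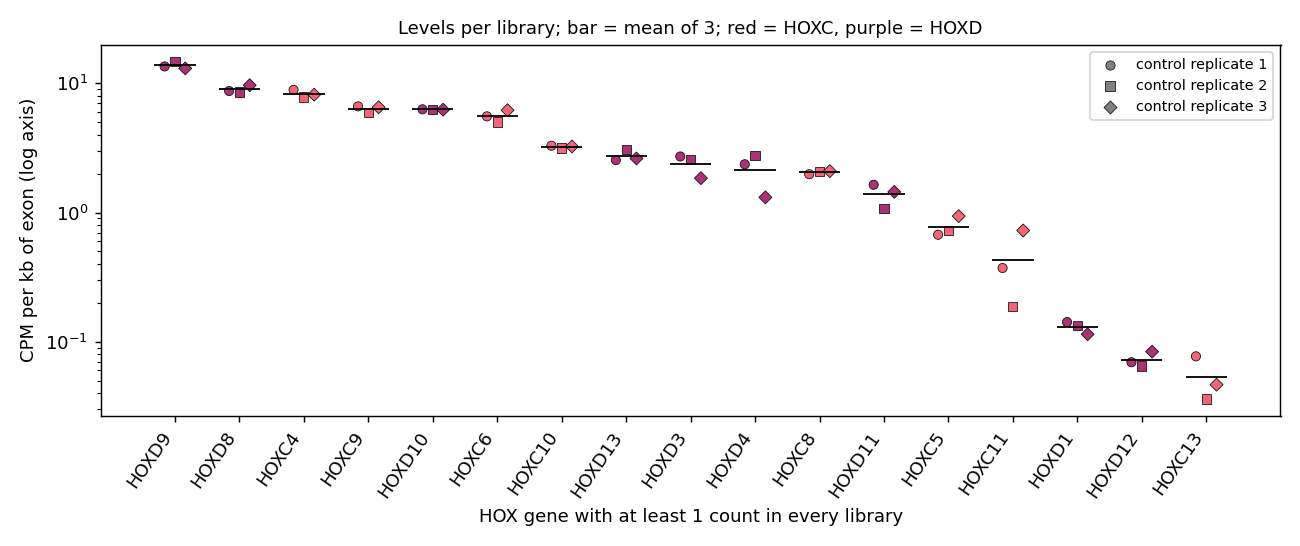
Points are CPM per kb of exon (log axis) in each of the 3 control libraries for the 17 HOX genes with at least 1 count in every library, ordered by their mean (bar), with HOXC in red and HOXD in purple. Points of HOXD10 coincide near 6.27, while those of HOXD4 spread from 1.31 to 2.75.

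HOXD9, a paralog 9 gene of the posterior trunk and limb, was the highest member per kb of exon. Per kb of coding sequence its mean was 24.4, below HOXC4 at 28.5, HOXC6 at 28.0 and HOXD8 at 27.1. HOXD9 had 270, 315 and 216 counts in replicates 1, 2 and 3. Per kb of exon this is 13.5, 14.7 and 13.0 CPM per kb, a mean of 13.8 ± 0.878 (SD, n = 3). HOXD8, its 3′ neighbour, had 245, 257 and 225 counts, or 8.71, 8.55 and 9.66 CPM per kb. HOXD9 was above HOXD8 in every library, and no other member reached its lowest value. HOXC4, a gene of the neck and upper trunk level, followed with 259, 244 and 197 counts and a mean of 8.3 ± 0.538 CPM per kb (SD, n = 3). The values of HOXD8 and HOXC4 overlapped, so their order was not resolved.

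The middle of the order held HOXC9 with 119, 114 and 97 counts, HOXD10 with 181, 193 and 149, and HOXC6 with 210, 203 and 194. Their means were 6.36 ± 0.37, 6.27 ± 0.0187 and 5.58 ± 0.586 CPM per kb (SD, n = 3). HOXC6 and HOXC9 are thoracic genes, and HOXD10 acts in lumbar motor neurons and the limb. HOXC9 overlapped HOXD10, while the lowest value of HOXD10 (6.25) stood just above the highest of HOXC6 (6.19). HOXC10, a lumbar gene, had 82, 84 and 67 counts and 3.23 ± 0.0694 CPM per kb. It lay below all values of HOXC6 and just above those of HOXD13.

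HOXD13, the terminal gene of its cluster and a gene of the digits and urogenital tract, had 61, 79 and 52 counts, or 2.75 ± 0.292 CPM per kb (SD, n = 3). It was followed by HOXD3, HOXD4 and HOXC8 at 2.38 ± 0.464, 2.14 ± 0.744 and 2.05 ± 0.0627. Each of these overlapped the next in the order. HOXD11 at 1.39 ± 0.285 and HOXC5 at 0.78 ± 0.14 closed it, each clear of its upper neighbour. HOXC5 had 13, 15 and 15 counts, and 59.9% of its exon length is shared on the same strand with read-through genes that were at 0 here. Over unshared exon length HOXD11 was the lowest, at 1.77 ± 0.363, and HOXC5 was at 1.94 ± 0.349 CPM per kb (SD, n = 3).

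Just under the threshold was HOXC11 with 13, 7 and 21 counts, the member with the largest relative spread among those with a count in every library. The remaining HOXC and HOXD members were near the floor. HOXD1 had 3, 3 and 2 counts, HOXC13 had 2, 1 and 1, HOXD12 had 1 in each library, and HOXC12 had none. Thus the 13 detected members and HOXC11 left 4 members of these clusters at 3 counts or fewer in every library.

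Along the HOXD cluster the level did not change evenly with position. From the 5′ end the means ran from 2.75 CPM per kb in HOXD13 to 0.0728 in HOXD12, 1.39 in HOXD11, 6.27 in HOXD10, 13.8 in HOXD9 and 8.98 in HOXD8, then 2.14 in HOXD4, 2.38 in HOXD3 and 0.13 in HOXD1. HOXD12, whose annotated start lies 6.84 kb from that of HOXD13, had 1 count in each library, between HOXD13 with at least 52 and HOXD11 with at least 26. In HOXC the terminal genes HOXC13 and HOXC12 were at 0.0533 and 0 CPM per kb, HOXC11 at 0.429, and the levels from HOXC10 to HOXC4 lay between 0.78 and 8.3. HOXD13 was thus detected while HOXA13, HOXB13 and HOXC13 were not.

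**Figure D3:**
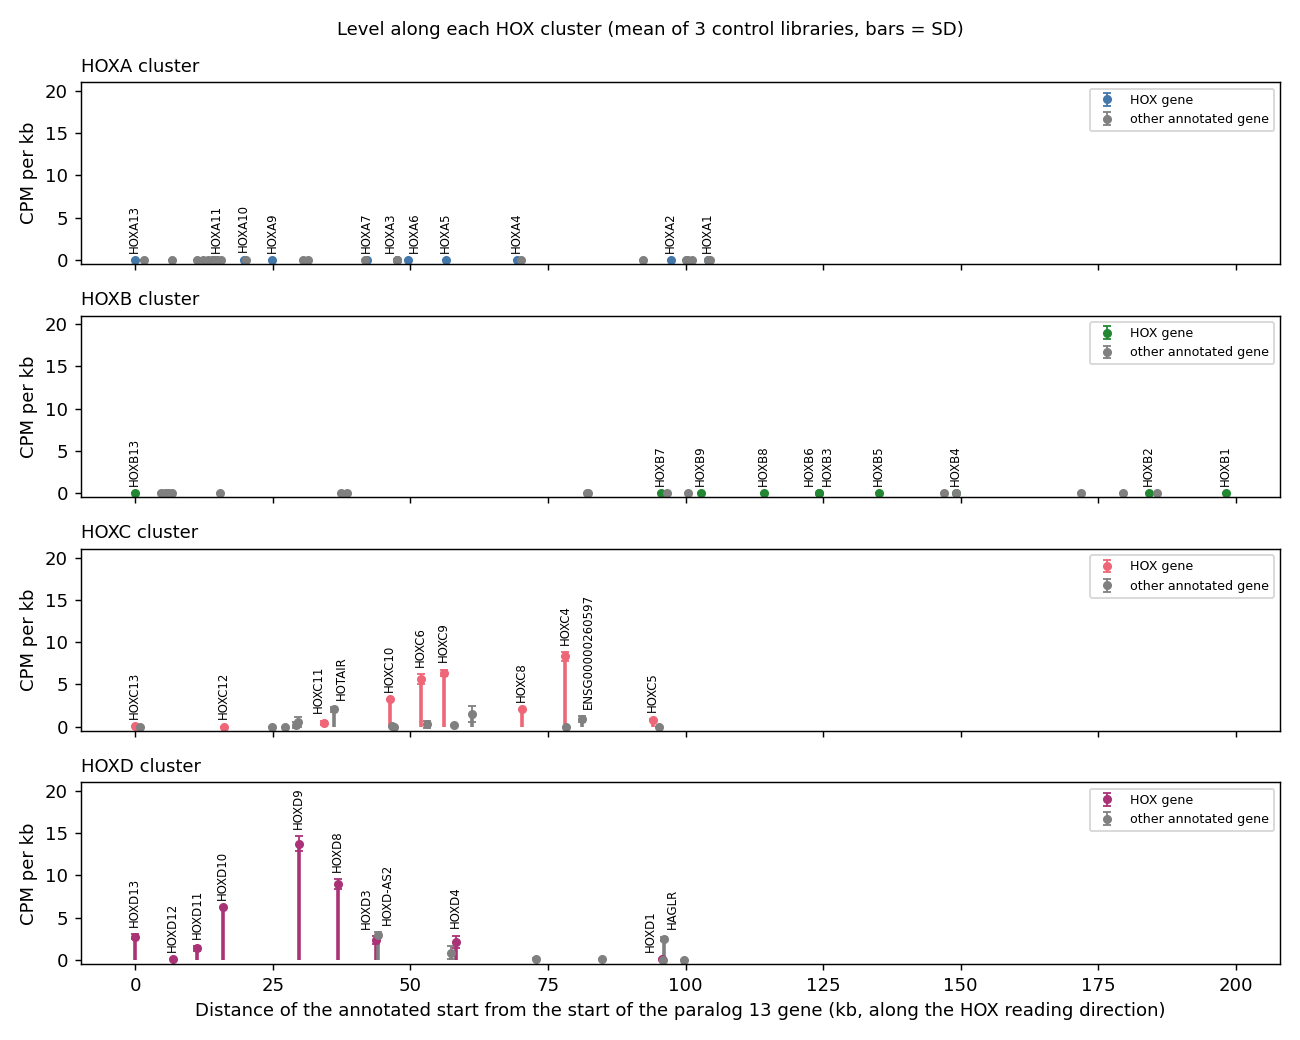
Each point is an annotated gene within the span of a HOX cluster, at the distance of its start from the start of the paralog 13 gene (kb), with its mean CPM per kb of exon over 3 control libraries and SD as bars. HOXA and HOXB lie on the baseline over their whole length, HOXD peaks at HOXD9, and HOXC peaks at HOXC4; starts are those of the longest annotated extent, which places HOXC6 before HOXC9 and HOXD3 before HOXD4.

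The stretches before the starts of 4 adjacent HOXD genes are shown because the level rises and falls between them. Each is 250 bases, 5′ to 3′ on the plus strand of chromosome 2, from RefSeq on GRCh38.p14. Capitals mark matches to 3 motifs searched on both strands and chosen with the levels known: the YY1 core CGCCATNTT, the HOX-PBX composite TGATTNAT and the TATA box TATAAA. Their positions are chr2:176092471-176092720, chr2:176099545-176099794, chr2:176107030-176107279 and chr2:176116528-176116777 in the order printed.

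HOXD13: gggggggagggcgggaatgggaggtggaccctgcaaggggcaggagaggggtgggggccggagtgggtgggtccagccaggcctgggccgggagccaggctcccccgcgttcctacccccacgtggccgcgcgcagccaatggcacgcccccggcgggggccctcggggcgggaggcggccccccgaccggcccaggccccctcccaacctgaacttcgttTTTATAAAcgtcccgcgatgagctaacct

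HOXD12: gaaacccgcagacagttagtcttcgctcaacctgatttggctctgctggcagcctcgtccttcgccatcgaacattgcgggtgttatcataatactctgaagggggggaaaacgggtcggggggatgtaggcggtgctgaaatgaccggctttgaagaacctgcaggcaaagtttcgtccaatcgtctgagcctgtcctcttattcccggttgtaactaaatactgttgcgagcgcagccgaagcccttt

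HOXD11: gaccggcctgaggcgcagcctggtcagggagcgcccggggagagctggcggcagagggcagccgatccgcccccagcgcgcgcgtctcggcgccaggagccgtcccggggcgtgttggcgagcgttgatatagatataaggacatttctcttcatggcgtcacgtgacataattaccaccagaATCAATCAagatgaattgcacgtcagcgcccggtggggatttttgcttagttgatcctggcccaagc

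HOXD10: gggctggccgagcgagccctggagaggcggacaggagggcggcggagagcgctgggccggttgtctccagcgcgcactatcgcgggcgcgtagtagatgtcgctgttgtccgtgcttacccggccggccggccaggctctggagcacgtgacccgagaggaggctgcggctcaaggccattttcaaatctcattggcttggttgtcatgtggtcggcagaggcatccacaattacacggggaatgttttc

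HOXD13 holds TATA box matches on both strands that overlap each other, and HOXD11 holds a HOX-PBX match, while the stretches of HOXD12 and HOXD10 hold no match to the letters searched. GC content over the 300 bases to 50 past the start was 74.0% in HOXD13, 54.3% in HOXD12, 62.3% in HOXD11 and 60.0% in HOXD10. RefSeq windows were found for 20 of the 39 members, as 26 distinct windows, since a gene can have several starts and HOXC4 and HOXC5 share one. Over the 7 windows of detected members the median GC content was 60.0%, and over the 19 windows of other members 56.7%. The ratio of observed to expected CpG, a mark of CpG islands, had a median of 0.861 in the first and 0.849 in the second set, against 0.579 over all 35116 promoter windows. The medians of detected and undetected members thus lay close together. GC content ranged from 47.3% to 74.0% in the first set and from 43.7% to 76.3% in the second. The 19 windows came from 12 genes, several being starts of HOXA3, so they are not independent.

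The YY1 core, bound by a protein that has been linked to Polycomb recruitment, was found in 3 of the 26 windows and in 3.19% of all windows. These were the shared start of HOXC4 and HOXC5, that of HOXD3, and a start of HOXA3. The HOX-PBX composite was in 2 of 26 and the TATA box in 5 of 26, against 2.82% and 11.5% of all windows. A match describes letters and shows no binding. The windows of HOXC4 (chr12:54016638-54016887, plus strand) and HOXA3 (chr7:27152584-27152833, minus strand) are printed because they resemble each other across clusters that differed in level.

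HOXC4: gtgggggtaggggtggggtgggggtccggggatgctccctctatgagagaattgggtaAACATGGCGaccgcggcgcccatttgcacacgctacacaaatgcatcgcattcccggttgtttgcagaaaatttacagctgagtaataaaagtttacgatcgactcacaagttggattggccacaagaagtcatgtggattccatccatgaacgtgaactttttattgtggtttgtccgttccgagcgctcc

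HOXA3: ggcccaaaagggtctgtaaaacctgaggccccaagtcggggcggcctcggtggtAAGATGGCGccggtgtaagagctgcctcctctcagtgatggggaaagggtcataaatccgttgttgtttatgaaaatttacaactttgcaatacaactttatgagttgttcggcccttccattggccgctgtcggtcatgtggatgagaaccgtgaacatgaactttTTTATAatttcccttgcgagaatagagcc

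Among 325 pairs of windows, local alignment scored this pair highest, at 42 against 35 for the next pair and a median of 13 (match 1, mismatch -1, gap opening -2, gap extension -1). The aligned part had 89 identical of 124 aligned bases, or 71.8%, and ran from base 115 to 244 in HOXC4 and from base 117 to 241 in HOXA3. HOXC4 stood at 8.3 CPM per kb. HOXC5, to which RefSeq also gives this start, stood at 0.78. The GENCODE gene used for the level of HOXC5 begins downstream, at base 54032853 of chromosome 12, so its 0.78 is not a level of this start. HOXA3, which also has other starts, had 0 counts in all libraries.

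By paralog number, the highest summed level was that of paralog 9 at 20.1 ± 0.536 CPM per kb (SD, n = 3), made almost wholly of HOXD9 and HOXC9. Paralogs 8, 4 and 10 followed at 11.0 ± 0.63, 10.4 ± 0.897 and 9.51 ± 0.0637. Per kb of exon, paralog 9 was above the others in every library. Paralog 6 was at 5.58 ± 0.586, carried by HOXC6 alone, paralog 13 at 2.82 ± 0.269, paralog 3 at 2.38 ± 0.464 and paralog 11 at 1.82 ± 0.483. Paralogs 2 and 7 had no count in any library; they have members in HOXA and HOXB only. Paralog 1 was at 0.13 ± 0.0141 and paralog 12 at 0.0728 ± 0.00987. The lead of paralog 9 over paralog 4 depended on the length used. Over exon length not shared on the same strand, HOXD4 was at 11.0 ± 3.81 and HOXC4 at 10.1 ± 0.65 CPM per kb. On that length HOXD9 was at 13.8 ± 0.878 and HOXC9 at 6.65 ± 0.387 (SD, n = 3).

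Where both HOXC and HOXD have a detected paralog, the side that led depended on the number. HOXD exceeded HOXC by 4.37 ± 0.259 times at paralog 8, by 2.17 ± 0.268 times at paralog 9 and by 1.94 ± 0.0416 times at paralog 10 (SD, n = 3, per kb). At paralog 4 the ratio was 0.259 ± 0.0953, so HOXC4 was higher than HOXD4 in every library. Over the exon length that no other gene of the strand shares, HOXD4 was by mean the second highest member. It was then at 11.0 ± 3.81 CPM per kb, against 10.1 ± 0.65 for HOXC4 (SD, n = 3). Of the exon length of HOXD4 80.5%, and of that of HOXD3 62.2%, overlaps the read-through gene AC009336.2. No count of AC009336.2 was used here, and how the authors counted shared reads is not given in the sources used here.

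HOXD3 and HOXD4 were also the detected members in which replicate 3 lay farthest below the other libraries. HOXD4 had 37, 46 and 17 counts, and HOXD3 had 103, 104 and 58, so replicate 3 was the lowest in both. On the log2 scale replicate 3 lay 0.96 below the mean of the other libraries in HOXD4 and 0.52 below in HOXD3. With the GC trend across genes removed, the deviations were -0.82 in HOXD4 and -0.36 in HOXD3. Others lay the opposite way: with the trend removed replicate 3 was above by 0.56 in HOXC5 and by 0.36 in HOXD11. The spread of HOXC5, 18.0%, was below its counting error of 26.5%, and HOXD11 deviated by 0.089 before removal. Depth and mitochondrial share also differed in replicate 3, and their part in these deviations was not tested. Replicate 3 was the lowest library in 4 of the 13 detected members, HOXD3, HOXD4, HOXD9 and HOXD10, and the highest in 4, against 41.8% and 38.6% of all detected genes.

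The relative spread between libraries was at or below counting error in 7 of the 13 detected members. Their median coefficient of variation was 6.69%, against 8.69% over all detected genes and 12.6% over the 6064 genes in the same range of mean counts, 14.3 to 267. HOXD10 varied by 0.298% although counting error alone is 7.62% at its depth, so such closeness in 3 libraries is not a measure of its true spread. HOXD4 varied by 34.8% with a counting error of 18.9%, and HOXD3 by 19.5% with 11.0%. Over all 13920 detected genes the biological coefficient of variation, edgeR's estimate of spread beyond counting, was 7.82%. It was 7.9% without replicate 1, 10.5% without replicate 2 and 3.88% without replicate 3. Each of these used the genes with at least 10 counts in the libraries kept.

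**Figure D4:**
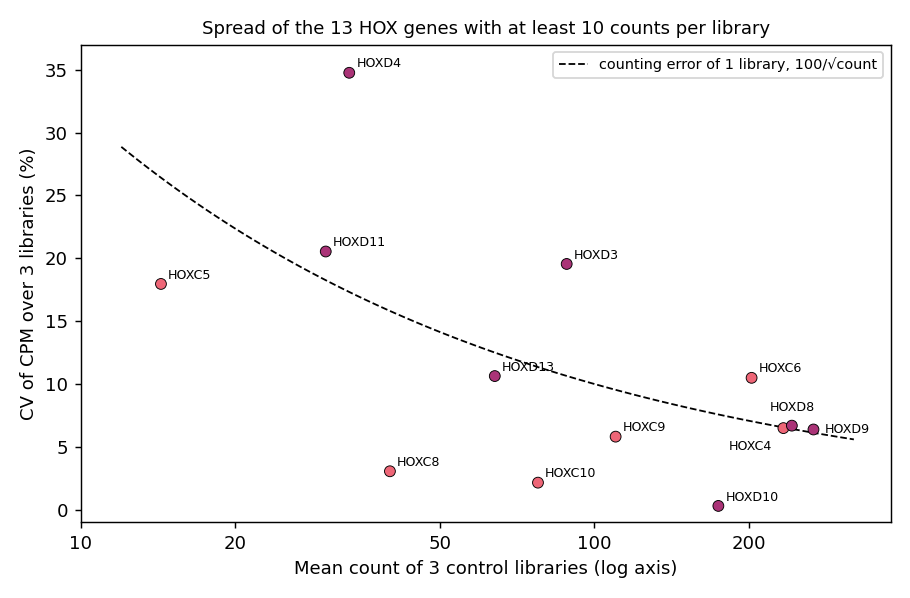
Each point is a HOX gene with at least 10 counts in every library, at its mean count over 3 control libraries (log axis) and the coefficient of variation of its CPM (%); the dashed line is the counting error of 1 library. HOXD4 and HOXD3 lie well above the line, at 34.8% and 19.5%, and HOXD10 lies lowest.

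The other genes inside the clusters followed the same division. All 23 annotated genes in the 107 kb of HOXA that are not HOX genes were at 0, as were all 17 in the 201 kb of HOXB. The 14 such genes of HOXC and 7 of HOXD gave 2 detected genes each, where 22.9% of all 60709 genes were detected. In HOXC these were HOTAIR, a long noncoding RNA antisense to HOXC genes, with 51, 58 and 53 counts, and ENSG00000260597, a long noncoding RNA with 36, 22 and 15. In HOXD they were HAGLR, transcribed from beside HOXD1 on the opposite strand, with 121, 153 and 122 counts, and HOXD-AS2, which starts beside HOXD3, with 49, 41 and 38. HAGLR exceeded HOXD1, with 3, 3 and 2 counts, in every library. Of 18 named long noncoding RNAs of the clusters, 3 were detected, or 16.7%, near the 22.9% of all genes. Another 11 were at 0, among them all 10 of HOXA and HOXB, such as HOTTIP and HOTAIRM1. Whether the counting used strand is not given in the sources used here, so reads of an antisense gene and of a HOX gene over shared exons cannot be told apart.

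The intervals without a detected gene ended outside the clusters. Around HOXA no gene was detected over 530 kb between SKAP2, with 25, 24 and 26 counts, and HIBADH, a mitochondrial dehydrogenase gene, with 495, 516 and 461. Within it 48 of 51 genes were at 0, and the others held 20 counts. Around HOXB the interval without a detected gene was 708 kb, from SNX11 with 823, 769 and 642 counts to CALCOCO2 with 825, 935 and 765. Within it 36 of 39 genes were at 0, and the others held 3 counts. HOXD was flanked by LNPK, with 538, 605 and 491 counts, and MTX2, with 698, 779 and 684. EVX1, the homeobox gene at the 5′ end of HOXA, was at 0, and EVX2, its paralog beside HOXD13, had 3, 2 and 3 counts.

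HOX proteins bind DNA with cofactors of the TALE homeodomain family, and 9 of 10 genes of a TALE list were detected, against 22.9% of all genes and 62.2% of protein-coding genes. Per kb the highest were PBXIP1, a protein that binds PBX factors, at 28.7 ± 1.45, MEIS2 at 17.8 ± 0.56 and PBX3 at 15.0 ± 0.457 CPM per kb (SD, n = 3). Each was above the highest HOX gene by mean. The list summed to 632, 644 and 633 CPM in replicates 1, 2 and 3.

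Genes for the regulators that keep HOX clusters silent or active were counted against the same shares, 22.9% of all genes and 62.2% of protein-coding genes. Polycomb group proteins repress HOX genes through methylation and ubiquitination of histones, and 23 of 23 genes passed, led by CBX2 at 44.0 ± 5.37, PHC2 at 33.2 ± 2.72 and RING1 at 31.8 ± 1.58 CPM per kb (SD, n = 3). Of genes for Trithorax group proteins, which keep HOX genes active, and for related histone enzymes and factors, 14 of 14 passed. PSIP1 led at 32.4 ± 1.89, followed by WDR5 at 27.5 ± 2.94 and MEN1, a partner of the KMT2A methyltransferase, at 19.7 ± 1.32. These values are messenger levels and say nothing of marks on the clusters.

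Of 14 genes that act upstream of HOX genes in the embryo, 6 were detected, or 42.9%, which lies between the shares of all genes (22.9%) and of protein-coding genes (62.2%). The highest were the retinoic acid receptors RARA at 9.42 ± 0.67 and RARG at 5.27 ± 0.592, with GDF11, a ligand of the trunk-to-tail transition, at 6.05 ± 0.639 CPM per kb (SD, n = 3). CDX1, CDX2 and CDX4, which switch on trunk HOX genes in the embryo, and WNT3A were at 0 in every library.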

How the data were processed

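Messenger RNA libraries of SH-SY5Y cells were made with a stranded kit, per the labels' protocols. The deposited values are raw counts per gene, whole numbers with no scaling by the authors, per the file headers. The submitters' processing notes name fastp 0.21.1, STAR 2.7.7a, featureCounts and the build GRCh38. The annotation release, the strand setting and the handling of shared reads are not given in the sources used here. Of 6 count columns, 3 matched a sample's number in the labels, and 3 matched none and were not used. The table has 60710 gene entries, of which 1 gives no value, and 2 lines that name no gene.

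From these counts CPM was computed with TMM factors (edgeR 4.0.16, R 4.3.3) and divided by exon length in kb, the union of all exons of a gene in GENCODE release 29 on GRCh38. All 39 members had a length. Coordinates of genes are from GENCODE, and those of promoters and microRNAs from RefSeq on GRCh38.p14. A gene was detected with at least 10 counts in every library. Neighbours in the order of levels were called apart where their values in the 3 libraries did not overlap. All 39 members were named whatever their values, and of the gene lists the 3 highest per kb and those at 0. ENSG00000260597, SNX11, SKAP2, HIBADH, CALCOCO2, LNPK, MTX2, EVX2, MIR10B and MIR196A2 were named after their values were seen. The members and lists were chosen with earlier results of these data known. Spread and GC trend (50 bins) estimates were tested on simulated data. Windows were aligned with Biopython 1.88 under Python 3.11.15, tables used pandas 2.3.3 with numpy 2.4.6, and exact intervals used scipy 1.17.1. Alternatives were other count minimums, RLE factors, library size alone, totals without mitochondrial genes, removal of the GC trend, 4 other length settings, the highest member left out, and leaving out single libraries. The edgeR test of peptide against control was not run, since columns of 1 group could be matched.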

Additional observations from a re-analysis of the deposited data

How the results depend on the processing

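No paired analysis was possible because only the control columns could be matched to samples, and the fits of peptide against control (edgeR, DESeq2, RLE factors, no filter, replicate block, replicates left out) were therefore not run. The number of detected members was 17 with at least 1 count in every library, 14 with 5, 11 with 20, and 14 with 10 counts in any library. Leaving out each library in turn gave 13 to 14 detected members, HOXC sums of 26.2 to 27.7 and HOXD sums of 37.2 to 38.6 CPM per kb, ratios of 1.34 to 1.48, and medians of 3.2 to 3.27. Removal of the GC trend, RLE factors and unscaled library sizes moved none of the sums, the ratio, the median or the 13 genes by more than 1 SD. With mitochondrial genes left out of the total, HOXD was 39.7 and the median 3.39. With the length of the longest transcript, HOXC was 34.5, HOXD 45.1 and the median 3.92. With coding length they were 86.4, 87.9 and 7.34, the ratio was 1.02, and HOXC4, HOXC6 and HOXD8 were the highest members. With the length not shared with another gene they were 31.3, 52.2 and 6.62, the ratio was 1.68, and HOXD9, HOXD4 and HOXC4 were the highest. HOXD11 was then the lowest in place of HOXC5. With no length they were 67.4, 87.2 and 8.77 CPM. Without its highest member, HOXC was 18.5 (HOXC4 left out) and HOXD 24.1 (HOXD9 left out). Of 143 single-gene values under these settings, 45 moved by more than 1 SD, nearly all under a change of length, which rescales a gene equally in every library. Depth limits the 26 undetected members. A count of 0 allows up to 0.339 CPM in the shallowest library. An undetected member with counts can lie higher: HOXC11 was at 1.4 ± 0.894 CPM, against 1.41 ± 0.253 in the detected HOXC5 (SD, n = 3).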

Other observations

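Of 31 genes outside the HOX clusters that belong to the same ANTP class of homeobox genes, 8 were detected, or 25.8%, near the 22.9% of all genes and below the 62.2% of protein-coding genes. TLX2, a gene of enteric and autonomic neurons, was the highest at 38.4 ± 3.42 CPM per kb (SD, n = 3), above HOXD9, and was followed by TLX3 at 8.19 ± 1.4 and MSX2, a neural crest gene, at 5.2 ± 0.477. Another 10 were at 0 in every library, among them GSX1, GSX2, PDX1, NKX2-1, NKX6-1, EN1 and EMX2.

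Transcription factors of the head and brain were detected in 4 of 18 cases, or 22.2%, again near the 22.9% of all genes and below the 62.2% of protein-coding genes. SIX3, a gene of the forebrain and eye, was at 7.47 ± 0.477, PAX5, a gene of the midbrain border and of B cells, at 4.7 ± 0.463 and SIX6, an eye and pituitary gene, at 4.13 ± 0.507 CPM per kb (SD, n = 3). Those at 0 included OTX2, VAX1, EMX2 and EN1. SIX3 was thus present in the same libraries, and at a level between those of HOXD10 and HOXC4, as HOX genes of the trunk. Bulk libraries do not tell whether the same cells carried both.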
